A study of Micromonas commoda with 15 samples.

Results

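Cultures of the marine green alga Micromonas commoda exposed to iron oxide (Fe2O3) particles were compared with unexposed control cultures by RNA sequencing, across every gene model of the deposited count table. The comparison was set by the labels alone and rests on 6 of the 15 libraries of the study, 3 per group. The exposed cultures, labelled as Fe2O3 engineered particles, were strain Noum17/RCC299 with the particles added at a labelled 3e-05 M and 2.4 mg/L of iron and collected 48 h later. The control cultures were the same strain at the same time, with no particle or salt named in their label. Both groups grew in L1 medium at 20 °C under 12 h of light and 12 h of dark, and the additions were made 24 h after flasks of 140 mL had been prepared in early exponential growth. The other 9 libraries come from cultures with FeCl3, ZnO particles or ZnSO4, 3 each, and served for the shared estimate of spread and for the tests of what sets the Fe2O3 particles apart. The labelled molar and mass doses of iron do not describe equal amounts by atomic mass, and which of them was weighed in is not given in the sources used here.

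Micromonas is among the smallest photosynthetic eukaryotes, a flagellated cell with a single chloroplast and a compact genome, and it is widespread in coastal plankton. Iron is a cofactor of the photosystems, of ferredoxin and of the cytochromes, so algae depend on it, while free iron inside cells also drives the formation of reactive oxygen species. Iron oxide particles dissolve poorly in seawater, whereas L1 medium already supplies chelated iron and trace zinc, so the control cultures were not free of either metal. The purpose stated by the study's title is the response to metal oxide nanoparticles.

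The table lists 10300 rows, of which 10012 had enough reads to be tested and 288 did not. Total counts of the 6 libraries ran from 33473041 in control replicate 3 to 46840498 in Fe2O3 particle replicate 3. The identifiers of the table are paired with no gene name or product, and none of them matched the RefSeq table of this species, so neither markers nor pathways could be looked up and the description below is by gene model. The labels do not say whether replicates were separate cultures, so p-values measure only the spread between these libraries. As these are bulk samples, a change in the RNA per cell cannot be told apart from a change in the mix of cells.

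The RNA of exposed cultures was distributed over the gene models differently from that of controls. Measured as the part of the counts that sits on different models, the mean Fe2O3 particle library and the mean control library differed by 30.4% of their counts. The 9 pairs of 1 particle and 1 control library ranged from 27.6% to 37.4%, with a median of 30.9%. Pairs of particle libraries differed by 4.45%, 10.7% and 11.2%, and pairs of control libraries by 7.79%, 9.19% and 11.3%. Every pair across the groups therefore differed more than every pair within a group. The pair of particle replicates 1 and 2 was the closest, and both pairs with particle replicate 3 were wider. This measure uses shares of the total count and no composition factor.

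**Figure D1:**
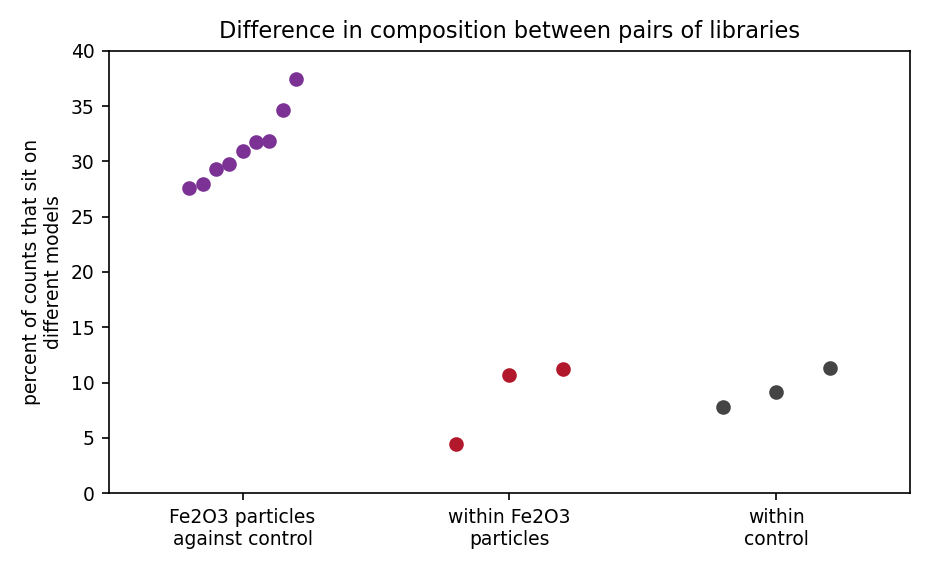
Difference in composition between pairs of libraries, as the percent of counts that sit on different gene models (y axis), for the 9 pairs of an Fe2O3 particle and a control library, the 3 pairs of particle libraries and the 3 pairs of control libraries (x axis). Each point is 1 pair, and the lowest pair across groups, at 27.6%, lies above the highest pair within a group, at 11.3%.

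The shift was not held by single models, but a small part of the models carried much of it. Of the 30.4 percentage points, 98 of the 6056 models that gained carried 50% of the gain. Among the 4216 that lost, 142 carried 50% of the loss. The 10 largest made up 18.6% of the gain and 17.2% of the loss. For scale, 50% of all counts sat on 316 to 377 models in control libraries and on 327 to 342 in particle libraries. The 10 models with the largest gain made up 8.90%, 8.85% and 9.99% of the counts with Fe2O3 particles, against 3.40%, 4.16% and 3.16% in control cultures. The 10 models with the largest loss made up 1.20%, 1.13% and 1.02% of the counts with Fe2O3 particles, against 7.77%, 5.72% and 5.59% in control cultures. Both sets were picked by these same differences, so their shares describe the shift and test nothing.

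Tested model by model, 7132 of 10012 models (71.2%) passed the threshold of 0.05 on the adjusted p of edgeR's quasi-likelihood test, and passing it is what "called" means below. Higher calls numbered 3560 (35.6%) and lower calls 3572 (35.7%). This near-even split depends on the scaling and the filter. Scaling by total counts alone gave 4069 higher and 2792 lower. A filter that kept means of 5 CPM or more gave 3484 and 2376. The sizes were broad: the middle of all models had a log2 fold change of 0.02, the 10th percentile was -1.42 and the 90th 1.73, and the 1st and 99th were -3.29 and 3.56. Among called models the median log2 fold change was 1.18 for those higher and -1.01 for those lower. The median standard error (SE) over all models was 0.19. The smallest change that was called had a size of 0.22 on the log2 scale.

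A test against a change of more than 2-fold, rather than against no change, called 1312 models higher (13.1%) and 1109 lower (11.1%) with Fe2O3 particles. Against 4-fold, 295 were higher (2.95%) and 269 lower (2.69%). Of the 2421 models past 2-fold, 2419 had all 3 particle libraries outside the range of the 3 control libraries, against 6818 of all 10012 models (68.1%). The same 6 libraries chose the models past 2-fold, so their separation follows largely from that choice and is no further support. The split beyond 2-fold also moved with the scaling and the filter. Scaling by total counts alone gave 1562 higher and 827 lower, with the median model at 0.25, and a filter that kept means of 5 CPM or more gave 1354 and 682, with the median model at 0.20. Of the 7132 calls, 5917 (83.0%) were made in the same direction whichever 1 of the 6 libraries was left out.

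**Figure D2:**
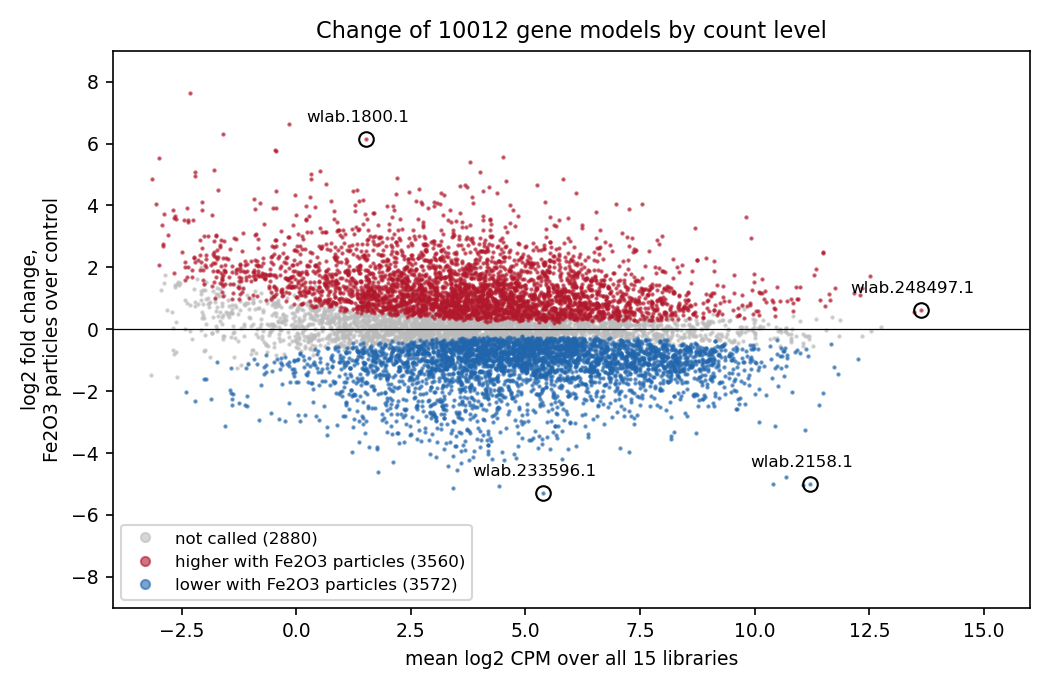
Log2 fold change of Fe2O3 particles over control (y axis) against the mean log2 CPM over all 15 libraries (x axis), 1 point per tested gene model; red models were called higher, blue models lower and grey models were not called. Red points number 3560 and blue points 3572, red ones prevail at the low end of the x axis and blue ones at the high end, and the 4 circled models are those named in the text.

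In each direction 2 models are named, the one with the largest log2 fold change and the one with the largest difference in CPM (counts scaled to library size, with TMM factors that correct for composition). They were taken from called models that average 5 CPM or more over the 6 libraries and carry no duplicate mark, and whose 2 groups do not overlap, so the lack of overlap in these models is part of the choice. Some models with fewer counts had larger fitted rises. The model wlab.1800.1 had the largest rise in fold among these eligible models. It stood at 14.3, 13.1 and 18.0 CPM with Fe2O3 particles, against 0.186, 0.170 and 0.288 CPM in control cultures. The control values rest on 6, 6 and 8 reads. On the log2 scale it rose by 6.15 (SE 0.33; edgeR adjusted p = 5.88e-10). Its level was 15.1 ± 2.54 CPM with Fe2O3 particles, 0.591 ± 0.147 with FeCl3, 19.5 ± 1.82 with ZnO particles, 4.17 ± 1.37 with ZnSO4 and 0.215 ± 0.0642 in control (SD, n = 3 each). In the order of these 5 groups, the ranges of Fe2O3 and ZnO particles overlap and no others do. Fe2O3 minus ZnO particles gave a log2 difference of -0.37 (SE 0.22; edgeR adjusted p = 0.269), which did not pass.

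The model wlab.248497.1 gained the most CPM among them. It held 1.95%, 1.99% and 1.84% of all counts with Fe2O3 particles, against 1.02%, 1.15% and 1.01% in control cultures, and it was the model with the most counts in all 3 particle libraries. On the CPM scale it stood at 20969, 21956 and 17412 with Fe2O3 particles, against 14403, 12338 and 12171 in control. In fold the rise was small, a log2 fold change of 0.63 (SE 0.18; edgeR adjusted p = 0.00588). It was 0.86 by total counts alone and 0.93 after the filter at 5 CPM, settings that raised the log2 fold changes of all 4 named models by similar amounts. The other groups lay at 11513 ± 1485 CPM with FeCl3, 16832 ± 400 CPM with ZnO particles and 6549 ± 950 CPM with ZnSO4 (SD, n = 3 each). The log2 difference from ZnO particles, 0.26 (SE 0.18; edgeR adjusted p = 0.358), did not pass.

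The model wlab.233596.1 had the largest eligible fall in fold. It stood at 11.2, 9.49 and 11.1 CPM with Fe2O3 particles, against 427, 337 and 484 CPM in control cultures. It fell by 5.29 on the log2 scale (SE 0.29; edgeR adjusted p = 7.19e-10). With FeCl3 it ranged from 31.1 to 83.4 CPM, with ZnO particles from 12.8 to 14.6 and with ZnSO4 from 35.6 to 43.0. FeCl3 and ZnSO4 overlap, while Fe2O3 particles lie below every other group, those with ZnO particles by a log2 difference of -0.37 (SE 0.25) that did not pass the test (edgeR adjusted p = 0.335).

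The model wlab.2158.1 lost the most CPM among eligible models. It stood at 485, 431 and 288 CPM with Fe2O3 particles, against 19139, 9841 and 9521 CPM in control cultures. It made up 1.36%, 0.918% and 0.789% of the 3 control libraries, and was the model with the most counts in control replicate 1. Control replicate 1 is the highest of the controls. The log2 fold change was -5.00 (SE 0.35; edgeR adjusted p = 8.08e-09), and it was -4.59 without control replicate 1. The other exposures lay between, at 4160 ± 216 CPM with FeCl3, 1588 ± 91.8 with ZnO particles and 2504 ± 1035 with ZnSO4 (SD, n = 3 each).

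**Figure D3:**
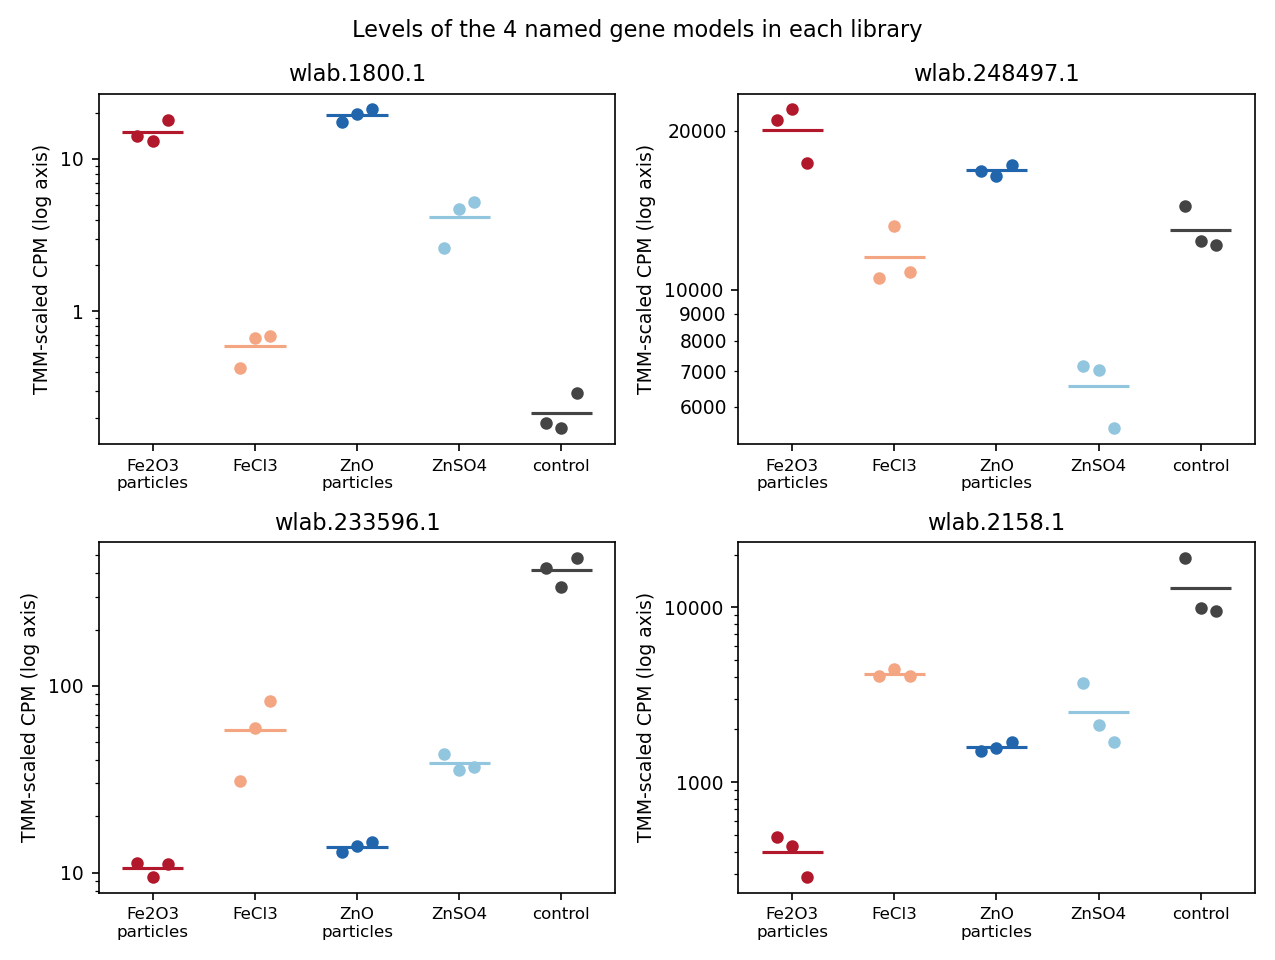
TMM-scaled CPM (y axes, log scale) of the 4 named models in each library of the 5 groups (x axes); points are libraries, 3 per group, and lines are group means. The models were chosen for groups that do not overlap between Fe2O3 particles and control; for wlab.2158.1 the particle libraries also lie below every library of the other exposures.

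A set of 3 further models with large losses followed wlab.2158.1 through all 15 libraries in a near-fixed ratio, as found by the spread of the log2 ratio among models averaging 1000 CPM or more. The closest kept between 0.847 and 0.920 of its CPM in every library, while wlab.2158.1 itself was 32.0-fold lower with Fe2O3 particles than in control. The second kept between 0.475 and 0.658, and the third between 0.551 and 0.852. Their log2 fold changes were -5.04 (SE 0.35), -5.00 (SE 0.39) and -4.78 (SE 0.39). The next model in this order, by contrast, ranged from 0.474 to 2.07. Models with nearly the same sequence can share reads in the counting, and sequences were not at hand, so whether these are 4 separate transcripts was not tested. The 4 models were grouped after their values were seen.

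Together these 4 models made up 0.145%, 0.124% and 0.0944% of the counts with Fe2O3 particles, against 4.29%, 2.73% and 2.44% in control cultures. The exposed libraries lie far below all controls, and the controls themselves differ, with replicate 1 the highest. In the other exposures the 4 models held 1.27 ± 0.0359% with FeCl3, 0.543 ± 0.0281% with ZnO particles and 0.970 ± 0.321% with ZnSO4 (SD, n = 3 each). Each of the 4 was lower with Fe2O3 particles than in every other group. The log2 differences from ZnO particles, the nearest group, were -1.99, -2.03, -1.98 and -1.96, and the highest of their edgeR adjusted p-values was 0.00107. The first model was chosen for its loss with Fe2O3 particles and the others for following it in every library. These are therefore not 4 separate results.

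**Figure D4:**
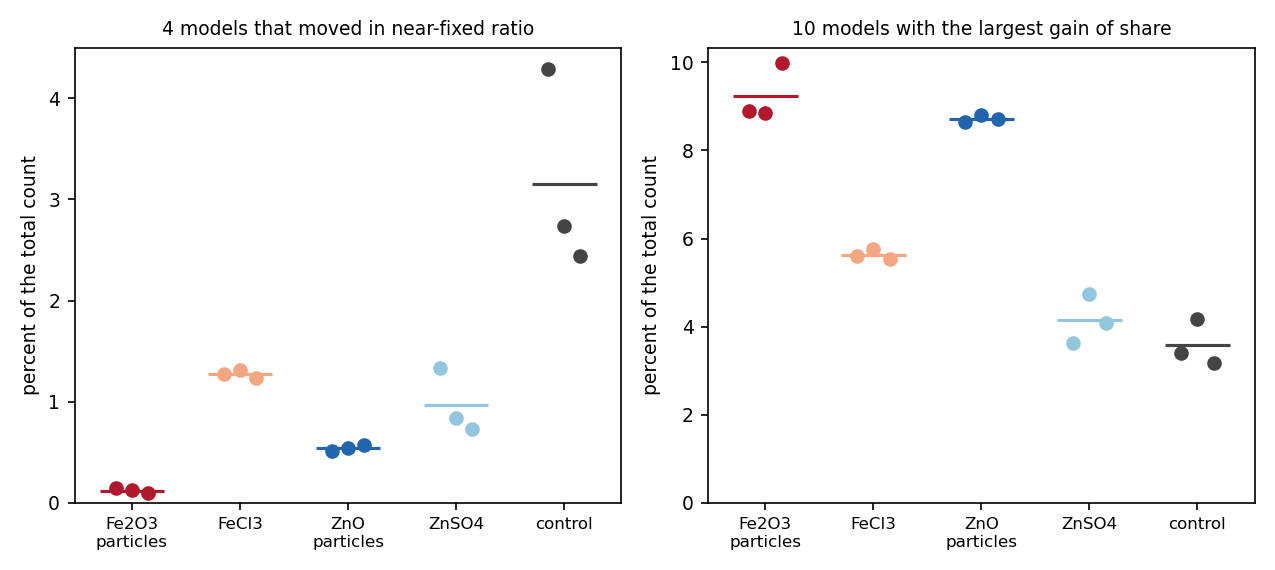
Percent of the total count (y axes) held by the 4 models that moved in near-fixed ratio (left) and by the 10 models with the largest gain of share (right) in each library of the 5 groups (x axes); points are libraries, 3 per group, and lines are group means. With Fe2O3 particles the 4 models hold 0.0944% to 0.145%, the lowest of the groups. The 10 models hold 8.85% to 9.99% with Fe2O3 particles and 8.64% to 8.81% with ZnO particles, where control libraries hold 3.16% to 4.16%.

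Calls differed with the count level of a model. The tested models were ranked by mean log2 CPM over all 15 libraries and divided into 4 classes of 2503. Counts grow with transcript length as well as number, and lengths were not at hand, so the classes rank read counts and not transcripts. In the lowest class 42.4% of models were higher with Fe2O3 particles and 19.3% lower than in control, and the median log2 fold change was 0.51. The second class had 38.6% higher and 33.4% lower. The third had 33.4% higher and 41.1% lower. In the highest class 27.8% were higher and 49.0% lower, with a median log2 fold change of -0.36.

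Low counts make calls harder, since the median SE was 0.29 in the lowest class and 0.15 to 0.18 in the others. Higher calls were the most frequent in the lowest class. The filter keeps a model with enough reads in 3 libraries, so models with few reads in control can enter through exposed libraries. The classes were not recomputed without this filter, so its part in that excess was not tested. The excess of higher calls in the lowest class and of lower calls in the highest class was present without any 1 of the 6 libraries. Without control replicate 1 the shares in the lowest class were 34.7% higher and 19.3% lower, and in the highest class 29.0% and 42.0%. The third class turned by total counts alone, at 39.6% higher and 31.2% lower. After the filter at 5 CPM, which also changes which models fall in each class, the class in that position had 43.6% higher and 31.0% lower. Those settings gave 35.5% and 42.5%, and 35.6% and 39.4%, in the highest class.

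**Figure D5:**
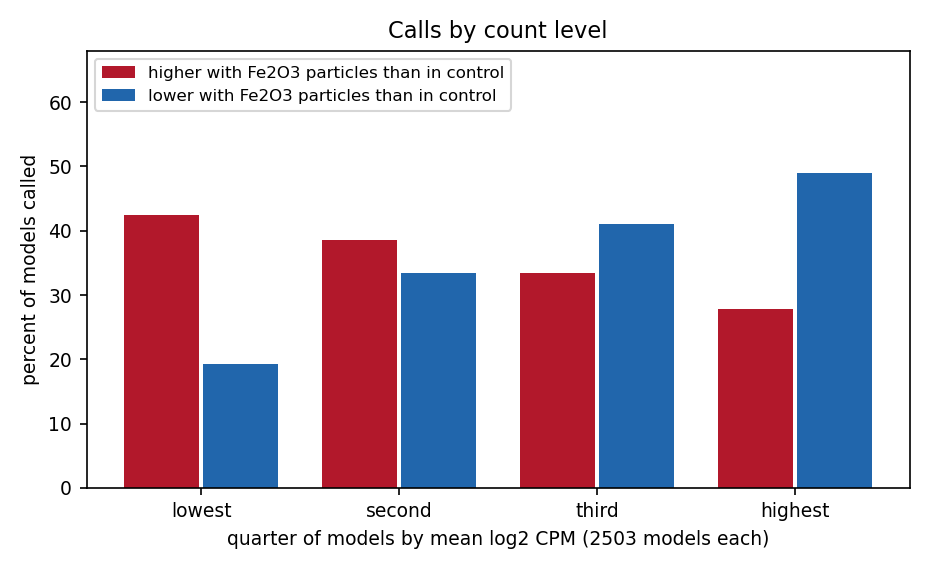
Percent of models called higher (red) and lower (blue) with Fe2O3 particles than in control (y axis) in 4 classes of 2503 models by mean log2 CPM (x axis). Higher calls go down from 42.4% in the lowest class to 27.8% in the highest, and lower calls go up from 19.3% to 49.0%.

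At the very top of the count range both directions occurred. Among the 100 models with the most counts over all 15 libraries, 30 were higher and 34 lower with Fe2O3 particles, 10 and 12 of them by more than 2-fold, where all tested models had 35.6% higher and 35.7% lower, and 13.1% and 11.1% past 2-fold. These shares lie near those of all models. Among the first 20 of these, 10 were higher and 5 lower. When the 100 models with the most counts were picked in each library on its own, they held 31.3%, 31.4% and 31.8% of the counts with Fe2O3 particles, against 29.9%, 27.0% and 26.5% in control cultures. The groups do not overlap, and the exact permutation test (two-sided) gave p = 0.1, the smallest that 3 against 3 libraries allow. The difference of 3.70 percentage points was not seen further down the list. For the 1000 models with the most counts the shares averaged 71.0 ± 1.17% with Fe2O3 particles and 72.8 ± 2.2% in control (SD, n = 3 each; exact permutation test, p = 0.3).

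At the bottom of the range, 19 models had at most 3 reads in each control library and at least 10 in each particle library, and 0 models showed the opposite. The choice of the 19 fixes that they are higher, so no test is given for them. Control libraries were also shallower on average after scaling, with overlapping total counts times TMM factors of 33184871 to 49448904 with Fe2O3 particles and 27754106 to 35287434 in control, so they fall under a fixed number of reads more easily. The one with the highest level had 114, 132 and 178 reads with Fe2O3 particles, against 0, 1 and 2 in control cultures. It reached 3.43 ± 0.168 CPM (SD, n = 3), which is at least 36.0-fold higher than the level of 3 reads per control library.

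Not every model moved. For 1364 models (13.6%) the 95% interval of the fold change, not adjusted for the number of models, lay wholly within 1.5-fold of no change. Of the 2880 models that were not called, 1232 were bounded in this way and 1648 were not, so most uncalled models are undecided rather than shown to hold their level. The bound also held for 132 called models, 52 higher and 80 lower, whose change was thus small but resolved. Bounded models were fewest in the lowest class by count level, at 3.56%, and made up 20.9% of the third. Fitting only the 6 libraries of this comparison bounded 826 models.

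Replicates of each group differed by less than the groups did. The median size of the log2 difference between libraries over all models ran from 0.70 to 1.08 for pairs across groups, from 0.14 to 0.35 for pairs of particle libraries and from 0.26 to 0.40 for pairs of control libraries. Particle replicate 3 stood 0.34 and 0.35 from the other 2. Its TMM factor was 1.06, against 0.928 and 0.907, and that of control replicate 1 was 0.708, against 0.933 and 0.829 in the other controls.

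Set against the mean of the other 3 exposures, Fe2O3 particles differed in 5147 models (51.4%), with 2740 higher (27.4%) and 2407 lower (24%). By more than 2-fold, 216 were higher and 116 lower. The contrast itself sets no control library against the particles, although control libraries enter the shared spread and scaling. All 4 named models were called in it, of which only wlab.2158.1 also differed from ZnO particles when tested against that group alone. The values were wlab.1800.1 at 2.06 (SE 0.17), wlab.248497.1 at 0.89 (SE 0.14), wlab.233596.1 at -1.56 (SE 0.22) and wlab.2158.1 at -2.67 (SE 0.29) on the log2 scale. Which direction prevailed depends on the scaling. Total counts only gave 1741 higher and 3500 lower, with the median model at -0.17. It also turned without single libraries: 2041 and 2494 without Fe2O3 particle replicate 3, and 2449 and 3159 without FeCl3 replicate 1. Without any 1 library of ZnO particles the counts were 2217 to 2257 higher and 2750 to 2801 lower. Without any 1 library of ZnSO4 they were 2239 to 2351 and 2804 to 2870. In these same runs the median model shifted to between -0.10 and -0.08. It lay between -0.004 and 0.007 in the other runs with 1 library left out.

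A smaller set stood apart from each of the other 4 groups, by a called difference in the same direction against control, FeCl3, ZnO particles and ZnSO4. These tests share the 3 Fe2O3 particle libraries, and beside the 71.2% called against control they called 55.3% of models against FeCl3, 19.2% against ZnO particles and 59.8% against ZnSO4. There were 595 such models higher (5.94%) and 377 lower (3.77%). The nearest group was ZnO particles for 283 of the higher and 276 of the lower models, and FeCl3 for 253 and 40. The distance to the nearest group was mostly modest, with a median log2 difference of 0.63 above it and -0.62 below it, and 120 higher and 38 lower models were at least 2-fold from it in the fitted values. The counts moved with single libraries. The higher set held 388 models without Fe2O3 particle replicate 3, 388, 319 and 377 without ZnO particle replicates 1, 2 and 3, and the lower set 617 without FeCl3 replicate 1. Total counts only gave 273 higher and 867 lower, so the split between the directions is not settled.

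Single cases in this set were large. Among those averaging 5 CPM or more, the one farthest above all other groups had 62.1, 76.8 and 103 CPM with Fe2O3 particles, against 1.64, 4.39 and 3.60 CPM in control cultures. It stood at 10.4 ± 3.08 CPM with FeCl3, 23.5 ± 5.60 with ZnO particles and 6.35 ± 2.62 with ZnSO4 (SD, n = 3 each), and its log2 difference from ZnO particles was 1.77 (SE 0.33). The nearest group of the second was control. It had 306, 410 and 342 CPM with Fe2O3 particles, against 87.7, 121 and 112 CPM in control cultures, and 94.8 ± 14.9 CPM with FeCl3, 93.5 ± 19.5 with ZnO particles and 44.6 ± 9.13 with ZnSO4. Its log2 differences from these 4 groups were 1.73 from control, 1.90 from FeCl3, 1.92 from ZnO particles and 2.98 from ZnSO4, and the highest of their edgeR adjusted p-values was 1.79e-05. The 3 models farthest below all other groups were wlab.2158.1 and the closest 2 of the models that moved with it.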

How the data were processed

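Per the labels' protocols, RNA was extracted on a Maxwell instrument and poly(A)-selected libraries were made. The submitters' processing notes name RSEM 1.3.0, STAR, Trim Galore 0.4.0 and CASAVA 2.17, without their order. For build and annotation, no source used here gives a name. The table as deposited by the authors holds raw counts of reads, 1 column per library, with no normalization to be seen. The name of the table points to HTSeq and the notes to RSEM, so the counter is not settled.

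The analysis ran edgeR 4.0.16 in R 4.3.3: filterByExpr with a minimum count of 10, TMM factors, and 1 quasi-likelihood model of all 15 libraries with group as its only term, since 3 libraries alone estimate the spread poorly. TMM assumes that most models do not change, which 71.2% called models strain, so total counts only were also tried. Adjustment followed Benjamini and Hochberg over all 10012 models. Changes beyond 2-fold and 4-fold were tested with glmTreat. SE is the absolute log2 fold change over the square root of F, and intervals use 95% and the model's degrees of freedom. Steps were tested on simulated data in which few models changed, equally in both directions, so TMM under broad change was not checked. Alternatives were DESeq2 1.42.0, limma 3.58.1 (voom), other scalings, filters and sample sets, a replicate block and each library left out.

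Named models passed 0.05 after adjustment, with groups that did not overlap, a mean of at least 5 CPM over the 6 libraries and an identifier on 1 row without a duplicate mark. From each direction the largest fold and the largest CPM difference were taken. Members, rules and lists were chosen with earlier results of these data known. Of 10297 identifiers, 0 matched the 10125 genes of RefSeq, so the pathway lists were not run.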

Additional observations from a re-analysis of the deposited data

Results flagged for a closer look

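A test of the difference between the Fe2O3 particle cultures and the mean of the other 3 exposures called all 4 named models. Against ZnO particles alone, wlab.1800.1, wlab.248497.1 and wlab.233596.1 were not called, with log2 differences of -0.37, 0.26 and -0.37 (edgeR adjusted p = 0.269, 0.358 and 0.335), while wlab.2158.1 was. The log2 difference was 2.06 for wlab.1800.1 (edgeR adjusted p = 3.19e-07). It was 0.89 for wlab.248497.1 (edgeR adjusted p = 9.38e-05), -1.56 for wlab.233596.1 (edgeR adjusted p = 3.94e-05) and -2.67 for wlab.2158.1 (edgeR adjusted p = 3.02e-06). Over all models this test called 2740 higher and 2407 lower, together 51.4% of the 10012 tested. The direction that prevailed turned with the scaling and with single libraries left out. The 4 named models were chosen by their difference from control in the same Fe2O3 particle libraries. Groups of 3 libraries are too small for a search for single outlying samples, and none was made.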

How the results depend on the processing

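Of 326 recomputed values, 308 kept their direction, their side of the threshold and, for counts, lay within 1.5 times. Each count was judged alone, so settings that turned the balance of higher and lower calls can still be among the 308. The 4 named models were called in the same direction under every alternative run. Keeping only means of 5 CPM or more gave 2376 lower models and 682 lower by more than 2-fold, where the median model moved to 0.20. More than 4-fold left 295 higher and 269 lower. Models bounded near no change numbered 826 with only the groups compared, 146 with a narrower bound and 3790 within 2-fold. Total counts only gave 1741 models higher than in the other 3 exposures, and 273 higher and 867 lower than in each of the 4 groups. Leaving out 1 library of any group moved those last counts between 319 and 647 higher and between 276 and 617 lower. The difference in the share of the leading models was -0.15 percentage points for 500 models and -1.84 for 1000. The composition difference, added after the data were seen, was 35.4 on TMM-scaled CPM. The causes were not tested. The replicate block gave 3587 higher and 3589 lower. Deviations of equally numbered particle and control libraries correlated at 0.55, -0.46 and -0.07 over models. Those of unequally numbered libraries correlated at -0.60 to 0.73. With 3 libraries per group these values cannot settle whether the numbers pair the libraries. DESeq2 and limma voom both made 7012 of the 7132 calls in the same direction.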

Other observations

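Rows with a duplicate mark or a repeated identifier, 35 in the table and 33 tested, leaned one way with Fe2O3 particles: 25 were lower and 5 higher than in control, with a median log2 fold change of -0.81, beside 35.7% lower and 35.6% higher among all models. Such rows can share reads, so they are not separate observations. Of 46 rows whose identifier does not have the wlab form, 23 were tested, with 8 lower and 4 higher.

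Side by side, the composition of the mean library differed from control by 30.4% with Fe2O3 particles, 16.0% with FeCl3, 24.6% with ZnO particles and 15.2% with ZnSO4. All 4 values share the control libraries. From the mean Fe2O3 particle library, those of FeCl3, ZnO particles and ZnSO4 differed by 21.4%, 11.2% and 26.0%. The 9 pairs of an Fe2O3 and a ZnO particle library differed by 9.80% to 16.9%, with a median of 11.3%. The lowest lies within the range of pairs of Fe2O3 particle libraries, while the median and the highest lie above its top of 11.2%.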
